A study of Mus musculus with 3 samples.

Results

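The genes described here are 39 genes of glucose oxidation, 19 of glycolysis and 20 of the tricarboxylic acid (TCA) cycle and its entry points, measured by 85 of the 44170 transcripts on the array, which carry 24203 gene names. They were chosen by gene name in the array annotation, and all 39 were found, 22 of them with 2 or more transcripts. The samples were natural killer B (NKB) cells, natural killer (NK) cells and B cells, each sorted from the spleen of wild-type C57/BL6 mice aged 8 weeks. None of the 3 groups carries an altered gene or received a treatment, per the labels. Total RNA of each population was copied with oligo dT primers, labelled with Cy3 and hybridised to 1 single-colour NimbleGen array. Without replicates no difference could be tested, and precision is limited by having 1 array per population. The sources used here do not say whether RNA of several mice was pooled or how the cells were gated, and the sorting text shared by all 3 samples names LT-HSCs, a stem cell population, in place of the populations of the titles.

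Glycolysis converts glucose to pyruvate in the cytosol, and lactate dehydrogenase converts pyruvate to lactate and back. The pyruvate dehydrogenase complex carries pyruvate into the mitochondrion's TCA cycle as acetyl-CoA, and the cycle feeds the respiratory chain. Resting lymphocytes depend mainly on oxidation, and activated B and NK cells are known for raising glycolysis.

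Intensities are on the linear scale as deposited, and the intensity of a gene is the mean of its transcripts on the log2 scale. Values of different genes come from different probes, so levels are compared only between arrays and never rank genes. The detection level of an array is the 95th percentile of 843 receptor genes of smell and pheromone sensing, taken as silent in spleen. It was 135 for NKB, 143 for NK and 152 for B. A value under its array's level was set to that level, and the fold is then written "at least". A gene is called higher or lower where 2 arrays differ at least 2-fold.

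The median intensity over all transcripts was between 64.3 and 65.1 on the 3 arrays. All 8 B cell markers were above the level on NKB, 1 of 8 on NK and 8 of 8 on B, with summed intensities of 24092, 608 and 24382. Of 9 NK cell markers, 7 were above it on NKB, 9 on NK and 1 on B, with sums of 14337, 54982 and 591, and Nkg7 and Eomes were under it on NKB. Markers of other cells were present too. Macrophage and monocyte markers above the level numbered 9, 8 and 1 of 9 (summed intensities 7607, 7203 and 861), erythroid markers 4, 5 and 4 of 9 (11524, 9124 and 1772) and T cell markers 2, 3 and 1 of 8 (741, 1401 and 626), each in the order NKB, NK and B. Granulocyte markers numbered 0, 1 and 0 of 7, skeletal muscle markers 0, 2 and 0 of 5, neuron markers 0, 1 and 0 of 4 and stem and progenitor markers 0, 0 and 0 of 5. Kidney tubule markers set the NKB array apart, with 8 of 11 above the level on NKB, 1 on NK and 1 on B, and summed intensities of 5591, 704 and 678. Among them the phosphate transporter Slc34a1 read 1809 on NKB, 111 on NK and 167 on B, whereas Lrp2, Slc12a1 and Slc12a3 stayed under the level on all 3. As examples of other lists, the B cell factor Pax5 read 10954 on NKB, 77.4 on NK and 1310.3 on B, and the chemokine Ccl5 read 8916, 30429.7 and 114. C1qc, Hbb-b1 and Cd3g were also above the level on NKB, and Camp, Acta1, Nefl and Kit were under it.

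More TCA cycle genes than glycolysis genes were called on the NKB array. Of the 19 glycolysis genes, the lactate dehydrogenase gene Ldhb was higher in NKB than in B, Pfkl and Eno2 were lower, 13 were neither and 3 were under the level on both arrays. Of the 20 TCA cycle genes, Dld, Mdh1, Idh2, Sucla2 and Pdhb were higher in NKB than in B, Pcx and Cs were lower, 5 were neither and 8 were under the level on both. Over all genes above the level on at least 1 of the 2 arrays 29.4% were called, 14.3% upward and 15.1% downward. Which direction had more calls turned with the scaling, with 1222 upward and 995 downward after a shift to equal medians, and 962 and 1243 after a new quantile normalization, against 1088 and 1149 as deposited. The median log2 difference of NKB over B, with no level set, was 0.05 over the 19 glycolysis genes, 0.14 over the 20 TCA cycle genes and 0.01 over all 24203 genes. Over the 7618 genes above the level on at least 1 of the 2 arrays it was 0.05. The difference between the 2 pathways was not tested. In sorted populations read in bulk, fewer cells expressing a gene and less RNA per cell cannot be told apart.

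Against NK cells the same 6 genes were higher in NKB and none of the 39 was lower. Of the glycolysis genes, 1 was higher, 16 were neither and 2 were under the level on both arrays, and of the TCA cycle genes 5 were higher, 10 neither and 5 under the level on both. The corresponding shares over all genes were 32.4% called, 17.2% upward and 15.2% downward. Here too the direction turned, with 1267 upward and 1397 downward at equal medians and 1184 and 1456 after quantile normalization, against 1394 and 1235 as deposited. The median log2 difference of NKB over NK with no level set was -0.26 for glycolysis, 0.39 for the TCA cycle and 0.02 over all genes. Over the genes above the level on at least 1 of the 2 arrays it was 0.11. The comparisons with B and with NK share the NKB array, so that 1 NKB value enters both. Being higher in NKB than on both other arrays was found for 10.5% of the 8698 genes above the level on any array, and being lower than on both for 6.59%. Among the members these counts were 6 and 0. A member dim in B and NK could pass the level only by being bright on NKB, as Ldhb, Idh2 and Hk2 did, and its sign was then fixed, so these counts are descriptions.

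In NK against B cells, none of the 19 glycolysis genes was called, 15 being neither and 4 under the level on both arrays. Of the TCA cycle genes, Pcx and Mdh1 were lower in NK, 12 were neither and 6 were under the level on both. The share called over all genes was 17.2%, 7.53% upward and 9.68% downward. With no level set, the median log2 difference of NK over B was 0.11 for glycolysis, -0.42 for the TCA cycle and -0.03 over all genes. Over the genes above the level on at least 1 of the 2 arrays it was -0.12. This comparison depended on scaling as well: shifting the arrays to equal medians put the median of all genes above the level at 0.09, against -0.10 as deposited, and the upward share of calls at 61.5%, against 43.7%. Slc2a1 and Tpi1 were then called higher in NK than in B, as they were after a new quantile normalization.

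**Figure D1:**
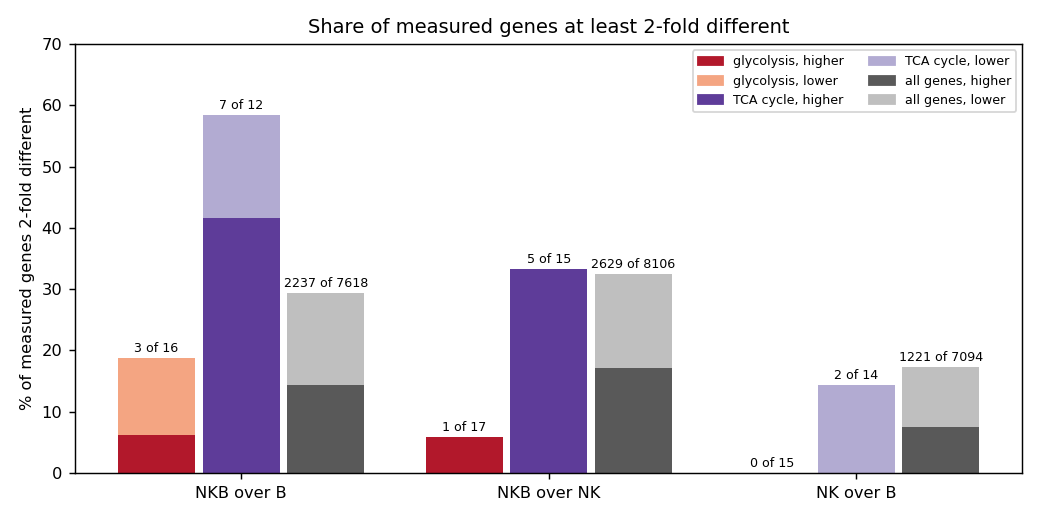
Percent of genes at least 2-fold different (y axis) in each comparison (x axis), over genes above the detection level on at least 1 of the 2 arrays, for glycolysis genes, TCA cycle genes and all genes, with the higher share in the dark and the lower share in the light part of each bar. Numbers above the bars give called genes of measured genes, and for NKB over B they are 3 of 16 for glycolysis, 7 of 12 for the TCA cycle and 2237 of 7618 for all genes.

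**Figure D2:**
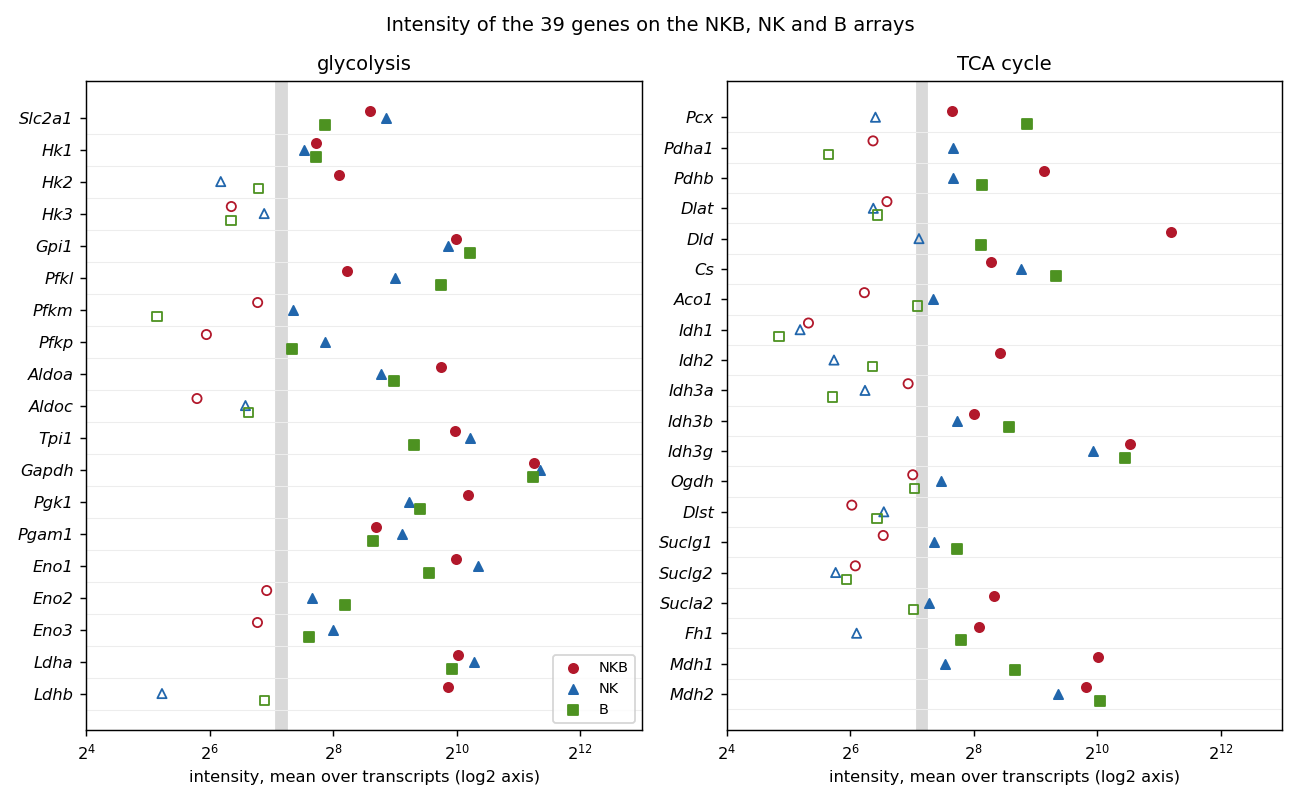
Intensity of each of the 39 genes (x axis, log2 scale, mean over the gene's transcripts) on the NKB, NK and B arrays, 1 array each and so without error bars. Filled symbols lie above and open symbols under the array's detection level, and the grey band spans the 3 levels, 135 to 152. Ldhb and Idh2 have filled symbols on NKB and open ones on NK and B.

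Without replicates, error can be gauged only within the arrays. The 843 receptor genes, with no level set, had a standard deviation of the log2 difference of 0.87 for NKB over B, 0.90 for NKB over NK and 0.68 for NK over B, and 21.0%, 21.0% and 14.0% of them differed at least 2-fold. The transcripts of 1 gene give another measure. The standard deviation of the log2 difference between transcripts of a gene, pooled over genes above the level, was 1.25 for NKB over B, 1.32 for NKB over NK and 0.83 for NK over B over all genes. For the glycolysis genes it was 1.09, 1.12 and 0.60 in the same order, and for the TCA cycle genes 0.64, 0.61 and 0.55. The comparisons that involve the NKB array had the wider spread over all genes and in glycolysis. In the TCA cycle the spreads lay close together and rest on 5, 6 and 5 genes. Genes whose mean was under the level are left out of them. In NKB over B these were Idh3a, Suclg2, Dlst, Ogdh and Dlat, with standard deviations of 2.38, 1.23, 1.12, 0.45 and 0.31 between transcripts.

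Gapdh, glyceraldehyde-3-phosphate dehydrogenase and a common loading control, shows the size of this spread. Its mean over 9 transcripts was 2444 in NKB, 2615 in NK and 2418 in B, at most 1.08-fold apart on any pair of arrays. All 9 transcripts lie at the same locus, within chr6:125111868-125115610 (MM9). In NK over B their log2 differences ran between -0.48 and 0.53 and none was called, but in NKB over B they ran between -1.72 and 1.26, with 2 transcripts called higher and 2 lower. In NKB over NK 2 were higher and 3 lower. Gapdh has many processed copies in the mouse genome, so which loci feed each probe is uncertain. A 2-fold difference of 1 transcript between NKB and another array lies inside the range that the Gapdh transcripts cover.

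At the entry of glycolysis, the glucose transporter gene Slc2a1 read 389 in NKB, 461 in NK and 234 in B, and no pair of arrays reached 2-fold. The hexokinases trap glucose in the cell by phosphorylating it. Hk1, the widely expressed form, averaged 212, 184 and 211 on NKB, NK and B over 2 transcripts, and was not called in any comparison. Of these transcripts 1 was under the level on all 3 arrays. The other read 792 in NKB, 692 in NK and 487 in B, 0.70 over B on the log2 scale, and was not called either. Hk2, the inducible form, was above the level on NKB alone, at 273 in NKB against 72.4 in NK and 110.2 in B. Its bounds, at least 1.91-fold over NK and at least 1.80-fold over B, stayed under the call. Hk3 was under the level on all 3 arrays as a mean, with 1 of its 2 transcripts at 169 in NK. The isomerase gene Gpi1, which makes fructose phosphate, read 1015 in NKB, 931 in NK and 1185 in B.

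Phosphofructokinase commits the sugar to glycolysis, and with the level set none of its 3 subunit genes was called higher on NKB. The liver-type subunit Pfkl read 297 in NKB, 514 in NK and 859 in B. It was 2.89-fold lower in NKB than in B on its 1 transcript and was called so under all 7 other ways of processing. With 1 transcript, the ways that choose among transcripts could not change its intensities. The platelet-type subunit Pfkp, on 4 transcripts, averaged 61.6 in NKB, 233 in NK and 160.4 in B, and its brightest transcript read 324, 1461 and 555. That transcript was 4.51-fold lower in NKB than in NK in the authors' deposited table. The muscle-type subunit Pfkm was above the level in NK alone, at 109.6 in NKB, 162 in NK and 35.4 in B. The authors' deposited table, which has no level, lists Pfkm as 3.09-fold higher in NKB than in B, a ratio of values that are both under it.

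Aldolase splits the sugar bisphosphate. Aldoa, the widely expressed aldolase, averaged 858 in NKB, 439 in NK and 505 in B over 5 transcripts, just short of 2-fold over NK at 1.95-fold. The transcripts did not move alike, since 1 was called higher in NKB in both comparisons, at 5869 in NKB, 1689 in NK and 1919 in B, and the other 4 were not called. Aldoc, the brain-type aldolase, had no transcript above the level on any array. Tpi1, which interconverts the triose phosphates, read 1009 in NKB, 1186 in NK and 636 in B and was not called.

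Pgk1 and Pgam1 stayed within 2-fold as gene means. Pgk1, which makes the first ATP of the pathway, averaged 1166 in NKB, 601 in NK and 677 in B, with 1 of its 2 transcripts 3.57-fold higher in NKB than in NK in the authors' deposited table and the other at 839 in NKB, 796 in NK and 765 in B. The phosphoglycerate mutase gene Pgam1 averaged 414 in NKB, 555 in NK and 399 in B. Of its 2 transcripts the array annotation places 1 on chromosome 7 (chr7:28254092-28254479, MM9), while the gene itself is on chromosome 19. The transcript on chromosome 19 read 274 in NKB, 563 in NK and 345 in B.

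Enolase makes phosphoenolpyruvate. Eno1, the form of most tissues, averaged 1016 in NKB, 1294 in NK and 748 in B over 7 transcripts. The log2 difference of these means was 0.44 over B and -0.35 over NK. Of the 7 transcripts 1 was under the level on all 3 arrays, at 26.9, 131 and 24.8 on NKB, NK and B. With no level set, that dim transcript alone gave -2.28 over NK and pulled the mean down. The 6 above the level ran between -1.27 and 0.57 over NK, on both sides of zero, so the mean gives Eno1 no clear direction there. The neuronal form Eno2 averaged 121 in NKB, 201 in NK and 291 in B and was called at least 2.15-fold lower in NKB than in B. Its 2 transcripts, at the same MM9 coordinates, went opposite ways. One transcript read 42.4 in NKB, 290.1 in NK and 631 in B, whereas the other read 347 in NKB, 140 in NK and 134 in B. The muscle form Eno3 averaged 109 in NKB, 256 in NK and 195 in B, and its transcript above the level, at 175 in NKB, 700 in NK and 497 in B, was lower in NKB in both comparisons. Of the 3 enolase genes only Eno2 was called as a mean, and that call joins transcripts of opposite sign. A level set at the 99th percentile put Eno2 under it on both NKB and B.

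Of the 2 lactate dehydrogenase genes, Ldhb was called and Ldha was not. Ldha, whose subunit favours making lactate, averaged 1043 in NKB, 1248 in NK and 971 in B, at most 1.29-fold apart, and neither of its 2 transcripts was called in any comparison. Ldhb, whose subunit favours lactate oxidation, is measured by 1 transcript at chr6:142438768-142456463 (MM9). It read 932 in NKB, 37.4 in NK and 118 in B, so that only NKB was above the level. The excess in NKB was at least 6.53-fold over NK and at least 6.15-fold over B. Both Ldhb calls held under all 7 other ways of processing, but the bound follows the level: at the 99th percentile it was 1.23 over NK and 1.15 over B on the log2 scale, against 2.71 and 2.62. Because Ldhb has 1 transcript, the ways that choose among transcripts could not change its intensities. Of 11 kidney tubule markers 8 were above the level in each of these comparisons, and 6 were called higher in NKB than in B and 6 in NKB than in NK. Over all genes above the level 14.3% and 17.2% were called upward. The part of these markers in the Ldhb value was not tested.

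The promoters of these 2 genes are shown because the genes encode subunits of 1 enzyme and read so differently on NKB. Each holds 250 bases before and 50 after the RefSeq gene start (build GRCm38.p6), 5′ to 3′ on the gene's strand. Capitals mark the core of the hypoxia response element, ACGTG or GCGTG on either strand. CACGTG, the E-box, contains ACGTG on both strands and so counts as 2 matches.
Ldhb promoter, chr6:142507908-142508207, minus strand: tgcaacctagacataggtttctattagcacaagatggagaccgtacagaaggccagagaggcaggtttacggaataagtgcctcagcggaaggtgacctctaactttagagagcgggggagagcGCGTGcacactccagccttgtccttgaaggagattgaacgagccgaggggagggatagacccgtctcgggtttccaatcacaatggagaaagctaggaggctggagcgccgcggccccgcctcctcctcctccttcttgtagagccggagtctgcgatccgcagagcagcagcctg
Ldha promoter, chr7:46845554-46845853, plus strand: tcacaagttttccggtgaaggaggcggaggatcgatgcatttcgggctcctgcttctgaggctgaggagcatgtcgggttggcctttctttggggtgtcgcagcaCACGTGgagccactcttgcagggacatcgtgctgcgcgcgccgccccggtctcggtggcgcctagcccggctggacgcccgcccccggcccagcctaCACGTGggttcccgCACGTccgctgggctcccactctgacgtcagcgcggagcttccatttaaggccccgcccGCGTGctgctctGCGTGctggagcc

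The Ldhb promoter holds 1 match, and this Ldha promoter holds 7, of which the 2 E-boxes make up 4. A second Ldha promoter, at chr7:46846832-46847131, holds 2 matches and no E-box. Over all 32851 promoters of this length 43.8% hold the core and 7.15% hold the E-box. Of 29 promoters of the 19 glycolysis genes 79.3% hold the core, and of 26 promoters of 19 TCA cycle genes 65.4%. The E-box is in 6.90% and 15.4% of them. Promoters of 1 gene overlap: Ogdh has 6, all with the core and 3 with the E-box, and counted by gene the core is in 16 of 19 glycolysis genes, 11 of 19 TCA cycle genes and 12628 of all 27025 genes, and the E-box in 2, 2 and 2187 of them. The median GC content was 57.3% for glycolysis, 61.2% for the TCA cycle and 52.7% over all promoters, and its part in these shares was not tested. A match is a stretch of letters and not a site of binding.

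**Figure D3:**
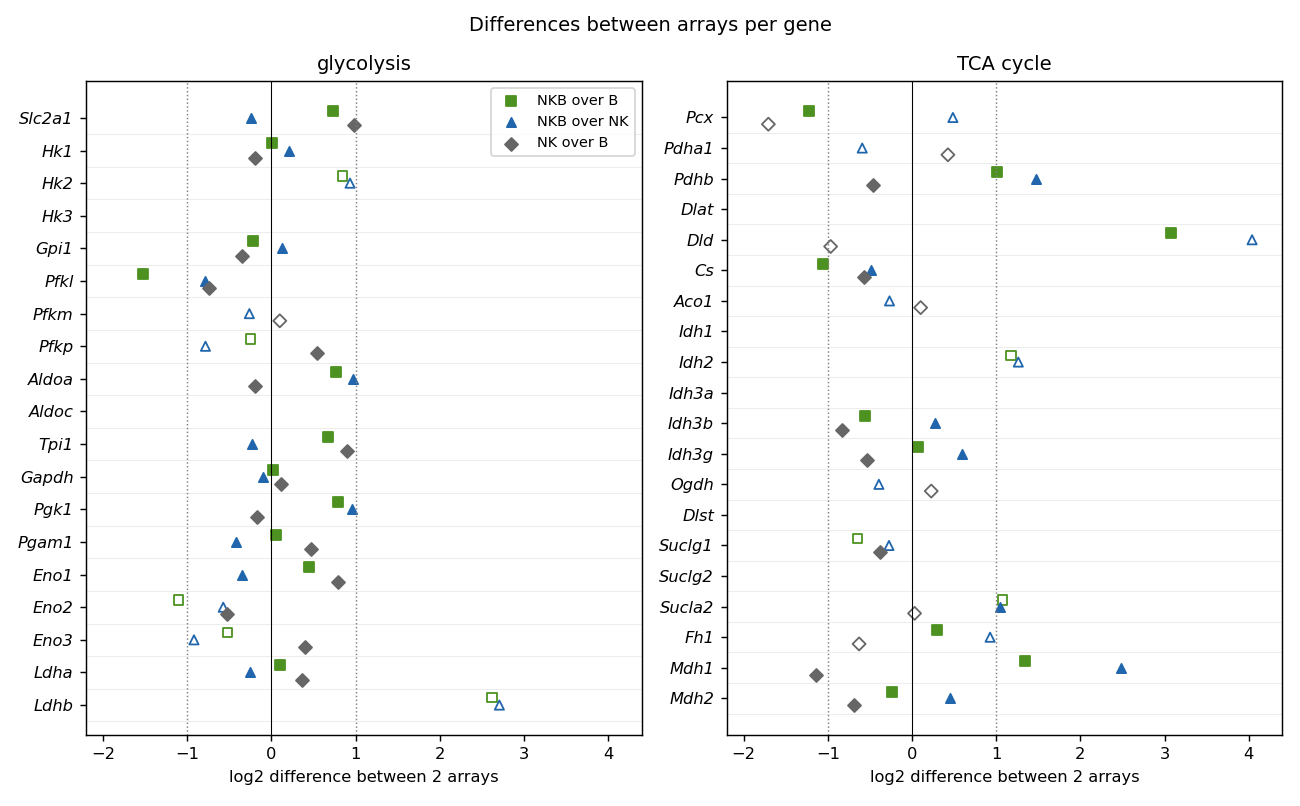
Log2 difference between 2 arrays (x axis) for each of the 39 genes, with NKB over B, NKB over NK and NK over B as separate symbols, 1 array per population. Open symbols are bounds, where 1 of the 2 arrays was under its level, a gene with no symbol was under the level on both arrays, and dotted lines mark 2-fold. Dld at 4.04 over NK and 3.07 over B and Ldhb at 2.71 and 2.62 lie farthest to the right.

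Pyruvate enters the cycle through pyruvate carboxylase or the pyruvate dehydrogenase complex. Pcx, the carboxylase, which supplies oxaloacetate, read 199.995 in NKB, 84.9 in NK and 466 in B. It was 2.33-fold lower in NKB than in B and at least 3.26-fold lower in NK than in B, and both calls ended when the 99th percentile set the level. Against NK, NKB was at least 1.40-fold higher, short of the call.

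The subunits of the pyruvate dehydrogenase complex did not move together. Dld, the dihydrolipoamide dehydrogenase that the pyruvate and oxoglutarate dehydrogenase complexes share, read 2348 in NKB, 138 in NK and 279 in B on 1 transcript at chr12:32016428-32036263 (MM9). It was 8.42-fold higher in NKB than in B and at least 16.4-fold higher than in NK. The Dld calls held under all 7 other ways of processing, but a level at the 99th percentile left bounds of 2.48 over B and 2.57 over NK on the log2 scale, against 3.07 and 4.04. As for Ldhb, choosing among transcripts could not change the intensities of Dld. Pdhb, the beta subunit of the first enzyme, read 563 in NKB, 203 in NK and 281 in B and was 2.77-fold higher in NKB than in NK. Its excess over B of 2.01-fold sat at the threshold and the call ended after a new quantile normalization. Both Pdhb calls ended with the level at the 99th percentile, which left bounds of 0.42 over B and 0.51 over NK on the log2 scale. The alpha subunit Pdha1 read 82.6 in NKB, 204 in NK and 50.3 in B, above the level in NK alone. Dlat, the acetyltransferase core, had none of its 3 transcripts above the level on any array.

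Of the first steps of the cycle, citrate synthase was lower in NKB than in B. Cs averaged 311 in NKB, 434 in NK and 645 in B, 2.08-fold lower in NKB than in B. Of its 2 transcripts 1 was lower in both comparisons, at 160 in NKB, 330 in NK and 479 in B, and the other, at 601, 570 and 867, in neither. The Cs call ended with the arrays shifted to equal medians and with the brightest transcript in place of the mean. Aco1, the cytosolic aconitase that also serves as an iron sensor, read 75.0 in NKB, 163 in NK and 137 in B.

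Isocitrate dehydrogenase exists in a mitochondrial NAD form of 3 subunits and in NADP forms. Idh2, the mitochondrial NADP form, averaged 343 in NKB, 53.3 in NK and 82.4 in B, above the level on NKB alone. Its excess in NKB was at least 2.40-fold over NK and at least 2.26-fold over B. Its 2 transcripts, at 312 and 376 in NKB, 59.2 and 48.0 in NK and 81.9 and 82.8 in B, were each called in both comparisons. With the level at the 99th percentile both Idh2 calls ended, and the call over NK also ended with the brightest transcript in place of the mean. At that percentile the NKB value of Idh2 stayed above the NKB level, but the levels of NK and B lay above that value. Idh1, the cytosolic NADP form, was under the level on all 3 arrays.

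The 3 NAD subunits were not called as means. Idh3g averaged 1472 in NKB, 973 in NK and 1403 in B, and Idh3b read 257, 213 and 379 on NKB, NK and B. Idh3a, the catalytic subunit, averaged 123 in NKB, 75.5 in NK and 52.2 in B, under the level on all 3. Its 2 transcripts differed widely, for 1 stayed under the level everywhere while the other read 566 in NKB, 175 in NK and 75.1 in B. With the level set, that transcript was higher in NKB by at least 1.90 over B and by 1.69 over NK on the log2 scale. Using transcripts above the level alone, a choice made after the values were seen, Idh3a was called higher in NKB in both comparisons. With the brightest transcript in place of the mean, Idh3a was also called in both, at 1.87 over B and 1.69 over NK.

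Oxoglutarate dehydrogenase makes succinyl-CoA. Ogdh, its first subunit, averaged 129 in NKB, 178 in NK and 131 in B over 3 transcripts, of which 1 was above the level, at 1184 in NKB, 826 in NK and 1009.6 in B. Dlst, the succinyltransferase core, averaged 65.1 in NKB, 93.3 in NK and 86.3 in B over 4 transcripts, and its 1 transcript above the level read 169, 304 and 437 on NKB, NK and B. Neither gene was called as a mean, while Dld, the subunit of this complex that it shares with pyruvate dehydrogenase, was. With the brightest transcript in place of the mean, Dlst was called lower in NKB than in B, at -1.37 on the log2 scale.

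Succinyl-CoA ligase pairs an alpha subunit, Suclg1, with a beta subunit that uses ADP, Sucla2, or GDP, Suclg2. Sucla2 averaged 320.5 in NKB, 155 in NK and 131 in B over 4 transcripts. It exceeded B at least 2.11-fold in NKB, with 3 of 3 transcripts above the level called, and exceeded NK 2.07-fold, with 2 of 3. The call over NK ended under both changes of scaling, a new quantile normalization and the shift to equal medians, and both calls ended with the level at the 99th percentile. As for Idh2, the levels of NK and B then lay above the NKB value, which stayed above the NKB level. Suclg1 averaged 92.7 in NKB, 164 in NK and 212 in B, and its transcript above the level read 208, 429 and 826 on NKB, NK and B. The Suclg1 transcript was 3.96-fold lower in NKB than in B in the authors' deposited table. Suclg2 had 1 of 3 transcripts above the level, at 299.9 in NKB, 46.6 in NK and 102 in B, and its mean was under the level on all arrays. The alpha and ADP-type beta subunits thus read in opposite directions on the NKB array, on the transcripts above the level.

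The last steps of the cycle convert fumarate to malate and malate to oxaloacetate. Fh1, fumarate hydratase, read 272 in NKB, 68.7 in NK and 221 in B, an excess in NKB over NK of at least 1.90-fold, short of the call. Mdh1, the cytosolic malate dehydrogenase of the malate-aspartate shuttle, is measured by 1 transcript at chr11:21457246-21471803 (MM9). It read 1034 in NKB, 185 in NK and 407 in B, all above the level. Mdh1 was 5.58-fold higher in NKB than in NK and 2.54-fold higher than in B, and these calls held under all 7 other ways of processing, with a bound over NK of 1.38 against 2.48 (log2) when the 99th percentile set the level. Choosing among transcripts could not change the intensities of Mdh1 either. Mdh1 was 2.20-fold lower in NK than in B, a call that ended with the arrays shifted to equal medians, and with the level at the 99th percentile both arrays were under it. Mdh2, the mitochondrial form that closes the cycle, read 902 in NKB, 659 in NK and 1061 in B and was not called in any comparison. Of the 2 malate dehydrogenases, the cytosolic one was called and the mitochondrial one was not.

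The promoters of Dld and Mdh1, the TCA cycle genes whose calls over both other arrays held under all 7 other ways of processing, are shown in the same way as those of Ldhb and Ldha, with the hypoxia response core in capitals. Both genes have 1 transcript, and the ways that choose among transcripts could not change their intensities.
Mdh1 promoter, chr11:21571885-21572184, minus strand: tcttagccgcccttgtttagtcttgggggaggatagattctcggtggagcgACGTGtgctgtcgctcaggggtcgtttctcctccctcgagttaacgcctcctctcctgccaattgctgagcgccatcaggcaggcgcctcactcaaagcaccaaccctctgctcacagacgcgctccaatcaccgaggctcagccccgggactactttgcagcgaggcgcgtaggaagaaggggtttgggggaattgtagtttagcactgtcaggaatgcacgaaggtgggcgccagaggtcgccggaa
Dld promoter, chr12:31351422-31351721, minus strand: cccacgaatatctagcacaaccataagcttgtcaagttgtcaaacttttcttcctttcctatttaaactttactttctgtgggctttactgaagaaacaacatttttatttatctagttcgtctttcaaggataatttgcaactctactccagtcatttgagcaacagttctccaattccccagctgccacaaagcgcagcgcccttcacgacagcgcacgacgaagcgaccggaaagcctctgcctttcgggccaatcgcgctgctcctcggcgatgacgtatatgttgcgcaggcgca
The Mdh1 promoter holds 1 match and the Dld promoter none, and neither holds the E-box. Of the other 3 TCA cycle genes higher in NKB than on both arrays, the promoter of Pdhb holds 2 matches, that of Idh2 1 and that of Sucla2 none.

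Read transcript by transcript, the TCA cycle transcripts had the larger share called higher on NKB. These are the values behind the gene means, so the transcript counts are no second support. Sucla2 gave 3 of the higher transcripts in NKB over B, and Idh2 gave 2, both above the level on NKB alone. Of the 37 TCA cycle transcripts 21 were above the level in NKB or B, 9 higher and 4 lower in NKB, against 17.8% higher and 16.4% lower over all 14826 such transcripts. Of 48 glycolysis transcripts 39 were above it, 7 higher and 5 lower. In NKB over NK, 9 TCA cycle transcripts were higher and 2 lower of 23, and 6 glycolysis transcripts higher and 8 lower of 41, against 21.1% and 16.8% of 15547. In NK over B, 0 were higher and 2 lower of 20 TCA cycle transcripts, and 2 were higher and 1 lower of 37 glycolysis transcripts, against 8.63% and 11.4% of 13611. The authors' deposited tables, which use no detection level, list 27 transcripts of 21 members for NKB against B (17 higher, 10 lower) and 28 transcripts of 21 members for NKB against NK (16 higher, 12 lower). In both of those tables Gapdh and Eno2 stand in both directions.

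**Figure D4:**
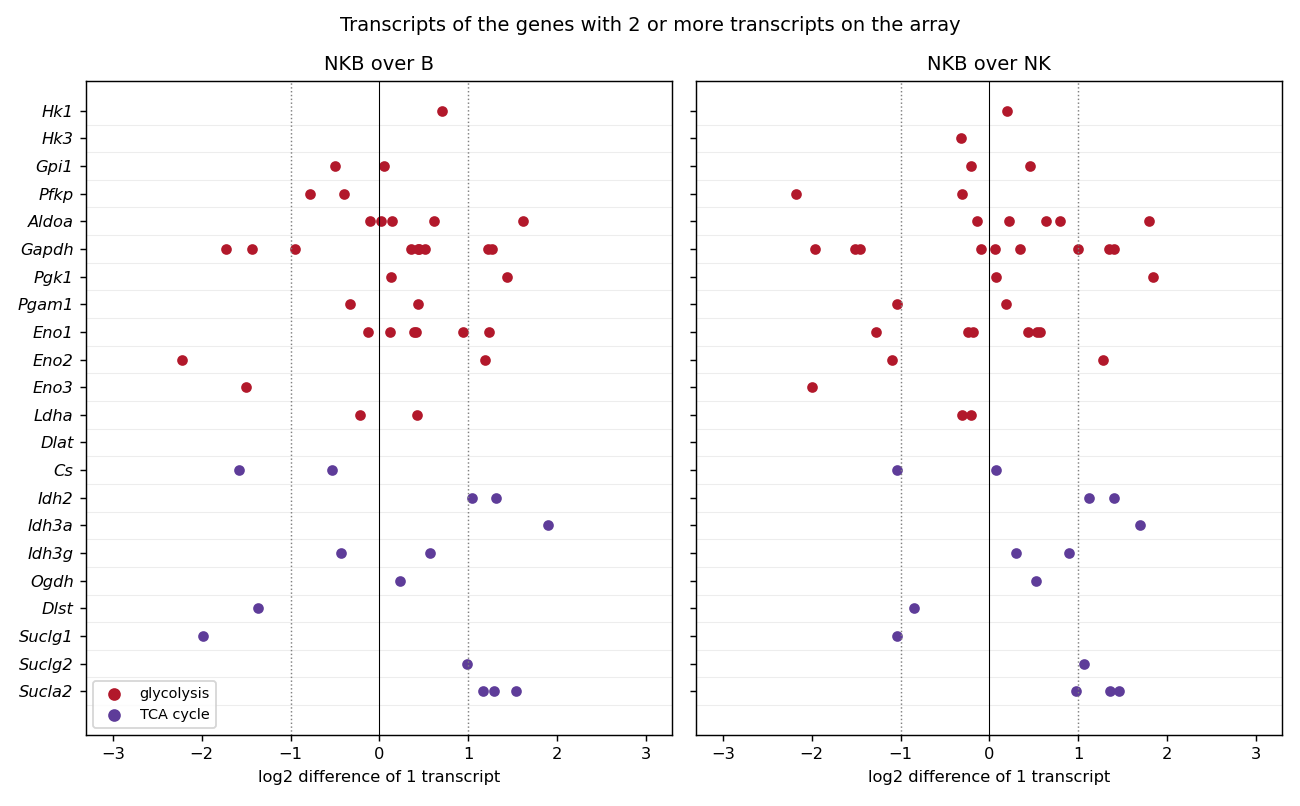
Log2 difference of single transcripts (x axis) for the 22 genes with 2 or more transcripts, NKB over B on the left and NKB over NK on the right, each point being 1 transcript above the level on at least 1 of the 2 arrays. Dotted lines mark 2-fold. The 9 Gapdh points lie on both sides of 0, between -1.72 and 1.26 in NKB over B, while the 2 Idh2 points and the 3 Sucla2 points lie above 0 in both panels.

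Other genes of glucose metabolism were read from lists written out by pathway. Of 19 further isoforms and steps, 3 were higher and 0 lower of 8 above the level in NKB over B, and 3 were higher and 1 lower of 9 in NKB over NK. Over all genes the shares were 14.3% upward and 15.1% downward in NKB over B, and 17.2% and 15.2% in NKB over NK. The succinate dehydrogenase gene Sdhd read 555 in NKB, 190.0 in NK and 156 in B and was higher in both. Sdha was 2.05-fold higher than in B and Sdhc 2.25-fold higher than in NK. Pdha2, the testis form of the pyruvate dehydrogenase alpha subunit, was at least 2.74-fold lower in NKB than in NK. Sdhb and 6430537H07Rik (now Eno4) were not called.

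Of 13 glucose and lactate transport genes, 2 of 7 above the level were higher in NKB than in B and 1 of 8 in NKB than in NK, beside the 14.3% and 17.2% upward over all genes. Bsg, which carries lactate transporters to the cell surface, was higher in both, at 2594 in NKB, 725 in NK and 634 in B. The liver and kidney glucose transporter Slc2a2 exceeded B at least 2.04-fold in NKB. Slc2a3, a high-affinity glucose transporter, and Brp44 (now Mpc2), a mitochondrial pyruvate carrier subunit, were not called. Of 12 regulators of flux, Pdk2, a kinase that switches off pyruvate dehydrogenase, exceeded B at least 2.17-fold in NKB, 1 of 4 above the level, and 0 of 5 were called in NKB over NK. Pdp2, the opposing phosphatase, read 252 in NKB, 498 in NK and 215 in B and was 2.31-fold higher in NK than in B. Pdk3, Pfkfb3 and 9630033F20Rik (now Tigar) were not called.

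Genes of gluconeogenesis and glycogen went both ways. Of 14 on the array, 2 were higher and 1 lower of 7 above the level in NKB over B, and 1 was higher and 1 lower of 6 in NKB over NK. The shares over all genes were 14.3% upward and 15.1% downward in NKB over B, and 17.2% and 15.2% in NKB over NK. Fbp1, the gluconeogenic fructose bisphosphatase, was higher in both, at 853 in NKB, 66.5 in NK and 79.2 in B. G6pc, the glucose phosphatase of liver and kidney, was above the level on NKB alone, at 260.0 in NKB, 77.8 in NK and 52.8 in B. Pygb, brain glycogen phosphorylase, was lower in both, at 85.7 in NKB, 368 in NK and 394 in B. Pgm2 (now Pgm1), a phosphoglucomutase, was 2.05-fold higher in NKB than in B, and Gaa and G6pc3 were not called. Slc34a1 and Miox (1407 in NKB, 49.5 in NK and 30.9 in B) are among the 6 of 11 kidney tubule markers higher on the same array, and the part of these markers in Slc2a2, Fbp1 and the TCA cycle values was not tested.

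In the pentose phosphate pathway, which branches from glycolysis to make NADPH and ribose, 3 were higher and 0 lower of 7 above the level in NKB over B. Over all genes 14.3% were called upward and 15.1% downward in NKB over B, and 17.2% and 15.2% in NKB over NK. The 3 higher genes of the pathway were G6pdx, its first enzyme, at 540.4 in NKB, 379 in NK and 246 in B, with Pgls and Rpia. In NKB over NK, Pgls was at least 2.45-fold higher and H6pd 3.06-fold lower. In NK over B, Pgd and H6pd were higher, while Tkt and Taldo1 were not called in any comparison. Of 15 genes of the malate-aspartate shuttle, glutaminolysis and citrate export, 2 were higher and 1 lower of 7 in NKB over B, and 2 were higher and 1 lower of 8 in NKB over NK. The same shares over all genes stand beside these counts. The 2 higher genes of this list were the aspartate aminotransferases that work with malate dehydrogenase in the malate-aspartate shuttle. Got1, the cytosolic one, read 696 in NKB, 260.0 in NK and 276 in B, and Got2, the mitochondrial one, read 1521 in NKB, 299.9 in NK and 316 in B. Acly, which cleaves exported citrate, was 2.34-fold lower in NKB than in B, and the glutamate dehydrogenase gene Glud1 was 4.41-fold lower in NKB than in NK. Glud1 was 2.82-fold higher in NK than in B, and Slc25a11 and Gpd1 were not called.

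Of 17 genes for transcription factors and sensors of these pathways, 0 were higher and 2 lower of 6 above the level in NKB over B, and 0 were higher and 2 lower of 8 in NKB over NK. All genes together gave 14.3% upward and 15.1% downward in NKB over B, and 17.2% and 15.2% in NKB over NK. Foxo1, which favours quiescence, was lower in both, at 430.5 in NKB, 1035 in NK and 1795 in B. Myc, a driver of glycolytic genes in activated lymphocytes, read 697 in NKB, 508 in NK and 1889 in B, 2.71-fold lower in NKB than in B. The oxygen sensor Egln1 was at least 2.28-fold lower in NKB than in NK. Hif1a, the hypoxia factor, was under the level on all 3 arrays, at 61.2, 69.5 and 66.6 on NKB, NK and B, and Epas1, Nrf1, Tfam and Esrra were not called.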

How the data were processed

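RNA of 3 sorted populations was measured on 1 array each. The intensities deposited by the authors came from RMA, of a version the submitters' processing notes leave out. Per the file headers there is 1 value per transcript, 44155 transcripts have 3 probes, and coordinates are on build MM9. They are on a linear scale and were used without further normalization. A series table holds the same intensities (largest difference 0). The authors deposited tables of transcripts past a ratio of 2 between 2 arrays, with log2 values and no test.

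Gene names are those of the array annotation. Transcripts of 1 name were averaged on the log2 scale, and the 2284 without a name were left out. Detection level (95th percentile of the receptor genes), calls at 2-fold and all counts were computed with Python 3.11.15, pandas 2.3.3 and numpy 2.4.6, and the steps were tested on simulated data. The simulated differences were larger than 2-fold, in bright genes, with less noise than these arrays show. That test therefore does not bear on the error of 2-fold calls on these arrays. No p-value is given, because there is 1 array per group. Promoters are from RefSeq (GRCm38.p6), which held 38 of the 39 genes (not Idh3a). Samples were grouped by title. All 39 members are named, with the 2 highest and 2 lowest of each further list and comparison, the brightest NKB member of each marker list, and any gene among 5 or fewer called, the last chosen after values were seen. Some genes of the further lists that this rule names are not reported here. The members and lists were chosen with earlier results of these data known. Alternatives changed the level, the scaling, the choice of transcript and the gene names.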

Additional observations from a re-analysis of the deposited data

How the results depend on the processing

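Each count was recomputed under 6 alternatives and under 1 chosen after seeing the data. Smaller changes of a count are not all listed here. With the level at the 99th percentile, NKB over B gave 1 glycolysis gene lower, 2 TCA cycle genes higher (Dld and Mdh1) and 1 lower, NKB over NK gave 2 TCA cycle genes higher and NK over B 0 lower. Idh2 and Sucla2 then took bounds of -0.30 and -0.39 (log2) over B and -0.21 and -0.31 over NK. Their NKB values were above the NKB level, but the levels of the B and NK arrays lay above these values. With no level, glycolysis gave 3 higher in NKB over B, 2 higher and 2 lower in NKB over NK and 1 higher and 1 lower in NK over B, and the TCA cycle gave 2 lower in NKB over NK and 1 higher and 4 lower in NK over B. Among smaller changes with no level, Fh1 and Pcx were also higher in NKB than in NK, at 1.98 and 1.24 (log2). Over B, Idh3a was then higher in NKB at 1.23 and Suclg1 lower at -1.19. After a new quantile normalization 2 glycolysis genes were higher in NK over B. With the arrays shifted to equal medians glycolysis gave 1 lower in NKB over NK and 2 higher in NK over B, and the TCA cycle 1 lower in NKB over B and 1 lower in NK over B. With the brightest transcript glycolysis gave 2 higher in NKB over B, 2 higher and 3 lower in NKB over NK and 1 higher and 1 lower in NK over B, and the TCA cycle 1 lower in NKB over NK. With only transcripts above the level, the added alternative, glycolysis gave 4 lower in NKB over B and 2 lower in NKB over NK, and the TCA cycle 4 lower and 1 lower. With updated gene names, Pcx, Dld and Mdh1 were the 3 TCA cycle genes lower in NK than in B, and every other higher or lower count of the members was equal. Over all genes in NKB over B, 1088 were higher and 1149 lower, against 456 and 617 with the level at the 99th percentile and 3192 and 3137 with no level. In NKB over NK the counts were 1394 and 1235, against 584 and 604 and then 3675 and 3605, and in NK over B 534 and 687, against 171 and 269 and then 2011 and 1946. The brightest transcript gave 1849 higher in NKB over B, 2176 in NKB over NK and 835 in NK over B. Equal medians gave 452 lower in NK over B. Of 629 other values of members and medians, 607 moved by less than the spread between transcripts of a gene (for a median, that spread over the square root of the number of genes) and 18 by more. The other 4 are the sign changes of called values given for Idh2 and Sucla2; counting values that were not called, 29 changed sign, 23 of them under 0.5 in size as reported. Where no reason is given, the cause was not tested. No paired analysis was possible because each population has 1 array. Genes under or near the level are limited by signal over background, which hides differences between dim genes.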
